A study of Mus musculus with 2 samples.

Results

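The cells described here were collagen- and *Dcn*-expressing cells found among CD31+CD45- cells sorted from YUMMER1.7 tumors, 87 in the control library and 147 in the Dnmt1iECKO library. They were 234 of the 16123 cells that passed the quality filters, out of 18823 in both libraries. A cell was selected when it had no UMI (a counted RNA molecule) of *Ptprc*, the gene for CD45. It also had at least 30 UMIs of *Col1a1*, *Col1a2*, *Col3a1* and *Dcn* together, and UMIs of at least 2 of the 5 genes *Sfrp1*, *Tnfaip6*, *Pi16*, *Col14a1* and *C3*. Cells with UMIs of 2 or more of the mesothelial genes *Upk3b*, *Msln* and *Wt1*, or of 3 or more of the alveolar fibroblast genes *Inmt*, *Npnt*, *Robo2* and *Gsta3*, were left out. These measured values chose the cells, so the levels of those genes are given as a description.

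YUMMER1.7 is a mouse melanoma line with a high mutational burden. Single-cell RNA-seq was used to ask how endothelial deletion of *Dnmt1*, the maintenance DNA methyltransferase, alters cells of the tumor vasculature. The Dnmt1iECKO library came from Cdh5CreERT2;Dnmt1fl/fl;ZsGreenlsl/lsl mice, in which tamoxifen activates a Cre driven by the *Cdh5* promoter, so the deletion is directed to cells that express *Cdh5* and not to fibroblasts. The control library is labelled C57BL/6, and the methods describe controls with the same Cre and ZsGreen reporter and no floxed *Dnmt1*. All mice were females of 8 to 10 weeks. The labels place the tumors under the skin of the shoulder, whereas the methods describe sorting from lungs after tail vein injection. Each library pooled the tumors of 3 mice, and each genotype had 1 library. No difference between genotypes could therefore be tested, and the spread between mice is unknown. Intervals in square brackets are 95% intervals for counting error only, so a difference between the libraries cannot be told apart from a difference between the pools of mice, their tumors or their handling.

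Fibroblasts are the connective tissue cells that lay down collagens, elastin and proteoglycans and remodel them with secreted proteases. Adventitial fibroblasts sit in the cuffs around larger vessels and airways and are known for *Pi16*, *Dpp4* and *Clec3b*, whereas alveolar fibroblasts of the lung are known for *Npnt* and *Inmt*. Tumor fibroblasts can take on contractile features with smooth muscle actin, or inflammatory features with chemokines and cytokines that recruit leukocytes.

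The libraries held 123830489 and 141433493 UMIs in 9301 and 9522 cells, with medians of 8904 and 8762 UMIs per cell. The selected cells were deeper, with medians of 42574 UMIs and 6550 genes in the control and 38497 UMIs and 5991 genes in the Dnmt1iECKO library. The CD31 gate should exclude fibroblasts, yet 317 alveolar fibroblasts, defined here by the excluding genes, and 60 mesothelial cells were also present. The alveolar fibroblasts used for comparison differed between the libraries in other cells' markers, with 8 epithelial genes summing to 6290 and 285 CPM and 10 immune genes to 1041 and 81.8 CPM, and the part of these in their ratios was not tested. Endothelial cells, taken as *Ptprc*-negative cells with UMIs of both *Cdh5* and *Pecam1* and little collagen, numbered 5113 and 2078. A UMI of *Cdh5* or *Pecam1* was found in 40 of 87 and 41 of 147 selected cells. The libraries shared 29 barcodes, and over both libraries together 1 selected cell carried such a barcode. The doublet caller marked 1 and 4 of the selected cells. Near the collagen threshold, 15 and 17 cells had 30 to 59 UMIs of the 4 matrix genes, and 8 and 16 cells that met the other conditions had 15 to 29. Another 52 and 68 cells were left out because they had only 1 of the 5 subtype genes.

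Clustering the selected cells on 2000 variable genes, from which the genes of the rule were not left out, gave 7 clusters. Of these, 2 did not carry the fibroblast label. Clusters 4 (30 cells) and 6 (22 cells) were led by *Rorb* and *Edil3*, and by the mitotic genes *Ube2c* and *Cenpf*. They had medians of 75408 and 113742 UMIs per cell, so that few collagen UMIs per depth met the rule. *Col1a1*, a chain of the main fibrillar collagen, stood at 64.4 CPM (UMIs per 1000000 UMIs of the summed cells) in them against 3735 CPM in the other clusters, and *Dcn*, the collagen-binding proteoglycan decorin, at 146 against 3858 CPM. *Hmga2*, a chromatin protein of embryonic and transformed cells, stood at 1709 against 7.42 CPM, and had a UMI in 51 of the 52 cells against 17 of the other 182. *Xist*, the RNA of the inactive X chromosome of females, had a UMI in 8 of the 52 cells and in 179 of the 182. Y-linked genes had UMIs in 38 of the 52 cells and in 3 of the 182, although the labels give female mice. Of the 7 melanoma markers only *Mitf* had enough UMIs to compare, at 27.3 against 38.4 CPM. The 52 cells are called here by their cluster numbers. Because of their depth they held 36.9% of the UMIs of the selected cells in the control and 48.8% in the Dnmt1iECKO library, so results are also given without them where they move the value.

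**Figure D1:**
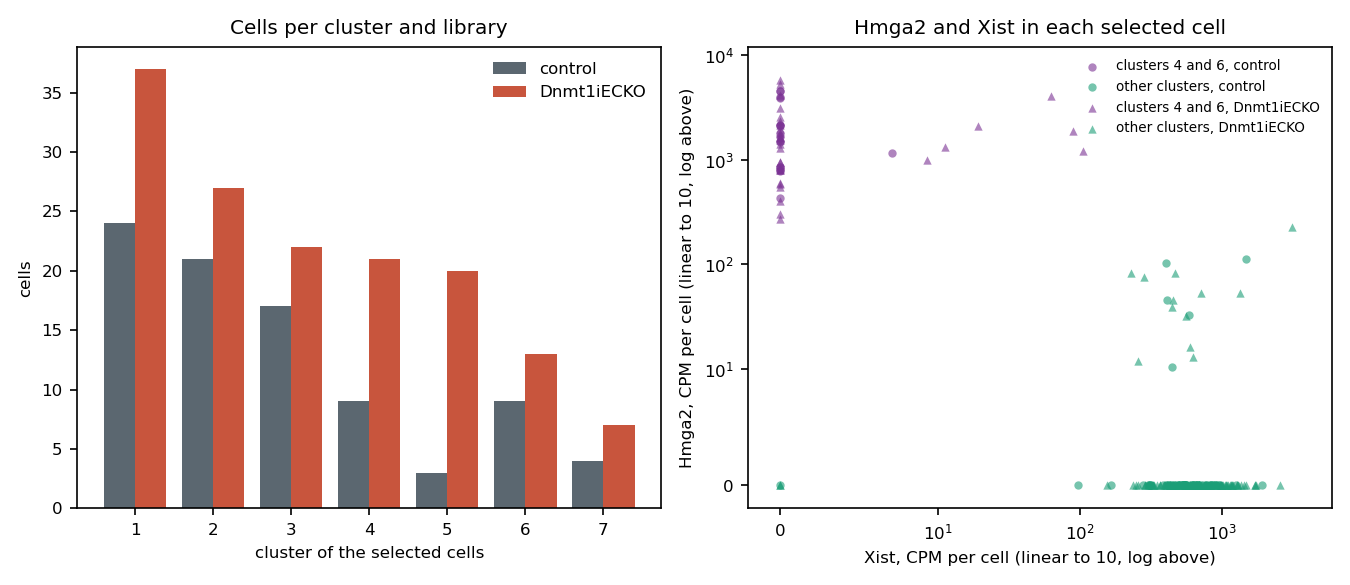
Left, number of selected cells in each of the 7 clusters in the control and the Dnmt1iECKO library. Right, level of *Hmga2* against *Xist* in each single cell (CPM, log axes that are linear below 10), with cells of clusters 4 and 6 in purple, the other clusters in green, control cells as circles and Dnmt1iECKO cells as triangles. Cells of clusters 4 and 6 lie at high *Hmga2* and mostly at 0 *Xist*, and the others mostly at 0 *Hmga2* and high *Xist*, in both libraries.

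The other 182 cells fell into 5 clusters. Clusters 2 (48 cells) and 5 (23 cells) were adventitial fibroblast-like, with 10 and 12 of 13 adventitial markers raised over the other clusters. However, 4 and 5 of 12 alveolar markers were raised as well, of which *Inmt* and *Gsta3* belong to the rule. Cluster 2 was led by *Inmt* and *Pi16*, and *Dpp4* and *Ces1d*, an alveolar marker, were among the leading genes of cluster 5. *Pi16*, a peptidase inhibitor homolog that is both an adventitial marker and a gene of the rule, was at 771 CPM in cluster 2 and 511 in cluster 5. *Clec3b*, tetranectin, which the rule did not use, was at 1469 CPM in clusters 2 and 5 together and at 67.9 CPM in cluster 1. *Dpp4*, a membrane dipeptidase of progenitor-like fibroblasts, was at 201 CPM in cluster 5 and 10.5 in cluster 2. *Dcn* per cell reached medians of 9931 CPM in control and 12832 CPM in Dnmt1iECKO cells of cluster 2. Cluster 7 (11 cells) was led by *Hhip*, an inhibitor of hedgehog ligands, at 4476 CPM, and was peribronchial myofibroblast-like by 6 of 9 markers. Cluster 1 (61 cells) held 5 of 12 alveolar markers, of which *Npnt* and *Robo2* belong to the rule, but was led by the chemokine genes *Cxcl9* and *Cxcl14*. The median *Dcn* level of its cells was only 85.2 CPM in control cells and 467 CPM in Dnmt1iECKO cells. Cluster 3 (39 cells) was led by *Tmem108*, *Wnt4* and *Aldh1a2* and by *Cthrc1*, a secreted protein of matrix-producing fibroblasts, at 285 CPM. Its cells also held *Wt1*, a mesothelial transcription factor, in 17 of 17 control and 22 of 22 Dnmt1iECKO cells, so it is called by its number.

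The same direction of difference from the alveolar fibroblasts was seen in both libraries for several genes that the rule did not use. Without clusters 4 and 6, *Fbln2*, an elastic fiber glycoprotein, stood at 545 CPM in the selected cells against 24.6 in alveolar fibroblasts. *Fst*, which binds activins, stood at 539 against 48.3 CPM, and *Lum*, a keratan sulfate proteoglycan, at 470 against 38.4 CPM. *Il33*, an alarmin cytokine, stood at 404 against 50.6 CPM. *Aldh1a2*, which makes retinoic acid, stood at 206 against 4.52 CPM. *Tagln*, an actin-binding protein of contractile cells, stood at 1110 against 113 CPM. These levels varied among the clusters: *Lum* was at 1092 CPM in clusters 2 and 5 together and at 57.4 CPM in cluster 1, and *Tagln* at 11.0 CPM in clusters 2 and 5 and at 601 CPM in cluster 1. In cluster 3 they were at 416 and 2184 CPM.

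**Figure D2:**
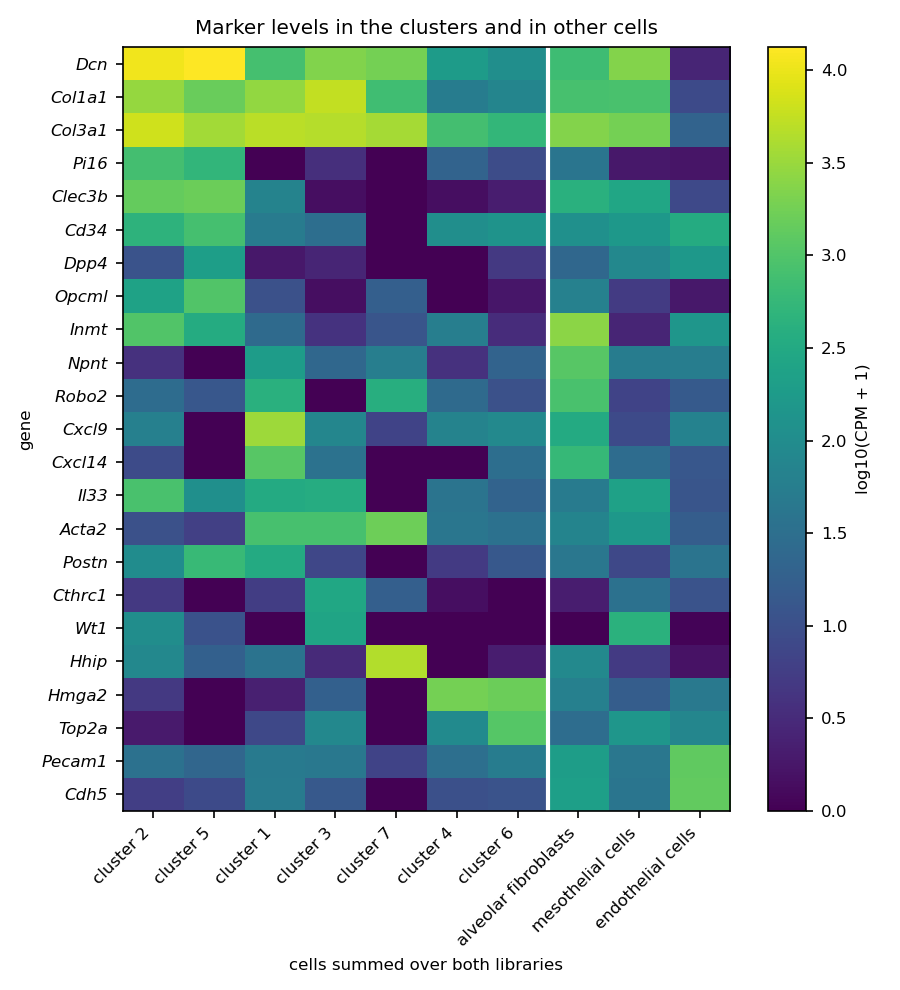
Levels of marker genes (log10 of CPM + 1, UMIs of both libraries summed) in each cluster of the selected cells and in alveolar fibroblasts, mesothelial cells and endothelial cells of the same libraries. *Dcn* and *Pi16* are high in clusters 2 and 5, *Hhip* in cluster 7, *Wt1* and *Cthrc1* in cluster 3, and *Hmga2* in clusters 4 and 6, where *Dcn* is low.

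The selected cells were a larger share of the Dnmt1iECKO library. They made up 1.08% [0.870 to 1.34] of quality-filtered control cells and 1.81% [1.54 to 2.13] of Dnmt1iECKO cells, a ratio of 1.67 [1.27 to 2.21]. Leaving out clusters 4 and 6, the shares were 0.860% and 1.39%, and the log2 ratio was 0.70 [0.25 to 1.15] against 0.74 [0.35 to 1.14]. Alveolar fibroblasts were at 1.93% and 2.00%, while the endothelial share was 63.7% in the control and 25.6% in the Dnmt1iECKO library. All shares depend on which cells passed the sort, and its part in the ratio was not tested. The denominators also differed, since 6555 of 8021 control and 3373 of 8102 Dnmt1iECKO cells lacked a *Ptprc* UMI in these CD45- sorts. Among *Ptprc*-negative cells the shares were 1.33% and 4.36%, a ratio of 3.28 [2.50 to 4.33], and among collagen-high cells 24.4% and 32.0%. Within the selected cells, cluster 5 held 3 control cells (3.45% [0.717 to 9.75]) and 20 Dnmt1iECKO cells (13.6% [8.51 to 20.2]). Clusters 1, 2, 3 and 7 held 27.6%, 24.1%, 19.5% and 4.60% of selected cells in the control, against 25.2%, 18.4%, 14.97% and 4.76% in the Dnmt1iECKO library. With 1 library per genotype, a cluster that lies mostly in 1 of them, as cluster 5 does, may be that library and not a cell type.

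*Dnmt1*, the gene deleted in *Cdh5*-expressing cells, was near equal in these cells once clusters 4 and 6 were left out, at 28.9 CPM (78 UMIs) in control cells and 27.7 CPM (101 UMIs) in Dnmt1iECKO cells, a log2 ratio of -0.06 [-0.50 to 0.38]. Over all selected cells it was at 61.6 and 52.6 CPM, a log2 ratio of -0.23. In endothelial cells it was at 49.1 and 27.5 CPM, a log2 ratio of -0.84 [-0.95 to -0.72], and in clusters 4 and 6 at 118 and 78.6 CPM, a log2 ratio of -0.58. The 3′ tags of this assay can come from transcripts that lack the deleted part, so they do not measure recombination in single cells. Over the 7 tested genes of DNA methylation and demethylation the median log2 ratio was -0.09, and -0.01 over 6 genes without clusters 4 and 6.

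Of 9292 genes with at least 100 UMIs in the selected cells, 79 (0.85%) were more than 2-fold higher and 92 (0.99%) more than 2-fold lower in the Dnmt1iECKO library. Of these, 44 and 20 remained when genes with over 20% of their UMIs in a single cell were left out. In the part of the selected cells with at least 100 UMIs of the 4 matrix genes, 175 genes were higher and 90 lower by that fold. Without clusters 4 and 6, 92 of 7324 genes (1.26%) were higher and 86 (1.17%) lower by that fold. In clusters 2 and 5, 52 of 2549 genes (2.04%) were higher and 41 (1.61%) lower. The median log2 ratio of all genes was -0.02, -0.04 and 0.01 in these 3 sets. An interval that excluded 0 was common, at 29.8%, 30.8% and 28.7% of genes, so the counts by interval below are read against these shares.

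Matrix genes as lists had medians just below 0 over all selected cells and above 0 without clusters 4 and 6. The 12 collagens outside the rule had median log2 ratios of -0.05 and 0.12 in these sets, with 2 intervals above 0 and 4 below in the first, 6 above and 3 below in the second, and none past 2-fold in either. The 24 proteoglycans and glycoproteins had medians of -0.09 and 0.18. Of these, 8 intervals were above 0 and 11 below over all selected cells, with 1 gene more than 2-fold lower, and 14 above and 6 below without clusters 4 and 6, with 1 past 2-fold in each direction. The 24 matrix proteases, cross-linking enzymes and inhibitors had medians of -0.09 and 0.03, with none past 2-fold over all selected cells and 2 more than 2-fold higher without clusters 4 and 6. Single genes differed more, and in clusters of their own. *Postn*, the matricellular protein periostin, was at 165 CPM (703 UMIs) in control cells and 66.8 CPM (475 UMIs) in Dnmt1iECKO cells, a log2 ratio of -1.30 [-1.47 to -1.13], and 1 control cell held 32.1% of its control UMIs. The ratio was -1.02 without clusters 4 and 6. In cluster 1 it was at 584 and 122 CPM, and in clusters 2 and 5 together at 111 and 301 CPM. Those pooled cells were 21 of cluster 2 and 3 of cluster 5 in the control against 27 and 20 in the Dnmt1iECKO library, and in cluster 2 alone *Postn* was at 91.6 and 104 CPM, a log2 ratio of 0.19 [-0.40 to 0.79]. *Eln*, elastin, was at 591 and 1413 CPM in cluster 1 and at 625 and 375 CPM in clusters 2 and 5. *Lum* was at 720 and 160 CPM in cluster 3 and at 1021 and 1129 CPM in clusters 2 and 5. *Efemp1*, a fibulin of elastic fibers, was at 46.4 and 112 CPM without clusters 4 and 6, a log2 ratio of 1.27 [0.98 to 1.57], which was 1.01 in clusters 2 and 5 together and 0.01 [-0.46 to 0.49] in cluster 2 alone. *Adamts5*, a protease that cleaves large proteoglycans, was at 75.7 and 153 CPM, a log2 ratio of 1.02 [0.78 to 1.25]. *Fn1*, fibronectin, was at 1882 and 2320 CPM. *Mmp3*, stromelysin, had 88 and 838 UMIs, of which 1 cell held 61.4% in the control and 27.6% in the Dnmt1iECKO library.

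Adventitial genes as a list had a median above 0 over all selected cells, which depended on cluster 5. The median log2 ratio was 0.28 over 13 genes, with intervals above 0 for 10 of them, below 0 for 1, and 1 past 2-fold. Without clusters 4 and 6 the median was 0.54. *Gsn*, the actin-severing protein gelsolin, was at 2379 and 3628 CPM without those clusters, and *Clec3b* at 283 and 422 CPM. *Igfbp6*, which binds insulin-like growth factor II, was at 252 and 375 CPM, and *Ackr3*, a scavenging receptor of CXCL12, at 26.7 and 64.6 CPM. Within cluster 2 the list's median was 0.14, and with cluster 5 left out of all selected cells it was -0.02. *Gsn* was at log2 ratios of 0.15 and *Clec3b* at 0.08 [-0.05 to 0.21] within clusters 2 and 5. Per-cell *Dcn*, a gene of the rule, overlapped between the libraries in cluster 2, from 0 to 21634 CPM in the control and from 356 to 22732 CPM in the Dnmt1iECKO cells.

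Genes of myofibroblasts and cancer-associated fibroblasts had a median below 0 over all selected cells, which depended on the cells kept. The median log2 ratio of 14 genes was -0.30, with 3 intervals above 0 and 9 below and 1 gene past 2-fold, and -0.32 without clusters 4 and 6. Without cells holding an *Epcam*, *Cspg4* or *Myh11* UMI it was 0.35, without cells holding a *Cdh5* or *Pecam1* UMI it was -0.082, and in clusters 2 and 5 it was 0.24 over 5 genes. In cluster 1 it was -0.72 over 11 genes, of which 3 were more than 2-fold lower (of all genes tested there, 2.22% were higher and 2.3% lower by that fold), and in cluster 3 it was 0.21 over 10 genes, of which 1 was more than 2-fold higher (2.53% and 1.58% of all genes). *Tagln* was at 890.5 and 370 CPM in cluster 1, a log2 ratio of -1.27 [-1.43 to -1.11], and 1 cell held 42.9% and 42.4% of those UMIs. *Acta2*, smooth muscle actin, was at 939 and 754 CPM in cluster 1 and at 662 and 982 CPM in cluster 3. Markers of other cells moved with the cluster 1 values. The 8 pericyte and smooth muscle genes summed to 783 and 275 CPM there and to 146 and 178 CPM in cluster 3, and over all selected cells to 284 and 140 CPM (408 and 180 CPM without clusters 4 and 6), with 4 of 6 tested genes more than 2-fold lower. The 10 endothelial genes summed to 691 and 106 CPM in cluster 1 and to 297 and 140 CPM over all selected cells (407 and 145 CPM without clusters 4 and 6), with 6 of 8 tested genes more than 2-fold lower and 1 higher. *Cdh5*, the endothelial cadherin, had 156 UMIs in the control and 51 in the Dnmt1iECKO library, and *Pecam1*, the gene for CD31, 284 and 190. In the endothelial cells the 10 genes summed to 9305 and 8409 CPM.

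Inflammatory fibroblast genes as a list had median log2 ratios of 0.41, 0.43 and 0.36 in clusters 1, 2 and 3. For some of them 1 cell held most of a library's UMIs. Over 22 genes the median log2 ratio was 0.04, and 2 genes were more than 2-fold higher and 1 lower. Without clusters 4 and 6 the median was 0.37, with 14 of 21 intervals above 0 and 4 below and 4 genes past 2-fold higher. *Ccl2*, a chemokine for monocytes, was at 219 CPM (590 UMIs) in control cells and 476 CPM (1733 UMIs) in Dnmt1iECKO cells without those clusters, a log2 ratio of 1.12 [0.99 to 1.26]. The top cell held 23.2% and 21.9% of these UMIs. In clusters 4 and 6 *Ccl2* was at 1889 and 1511 CPM, and over all selected cells its log2 ratio was 0.23. *Ccl19*, a chemokine for naive T cells and dendritic cells, had 88 and 256 UMIs without those clusters, a log2 ratio of 1.11. *Ccl11*, eotaxin, stood in the other direction at -0.50, as did *Ptgs2*, which makes prostaglandins, at -0.43. *Cxcl13*, a B-cell chemokine, had 201 and 847 UMIs, of which 1 cell held 97.0% and 52.7%, and *Saa3*, serum amyloid A3, had 68.6% of its Dnmt1iECKO UMIs in 1 cell. Such values describe single cells and not the library.

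Interferon-response genes as lists had medians below 0 over all selected cells. The 29 tested interferon gamma genes had a median log2 ratio of -0.18, with 4 intervals above 0 and 13 below and none past 2-fold, and -0.07 without clusters 4 and 6. The 19 type I interferon genes had a median of -0.26, with 1 interval above 0 and 9 below and 3 more than 2-fold lower, and 0.09 without clusters 4 and 6. By cluster, the interferon gamma list stood at -0.23 in cluster 1, 0.48 in cluster 3 and -0.42 in clusters 2 and 5, whose make-up differed between the libraries, and at -0.26 in cluster 2 alone. The type I list stood at 0.15 in cluster 1 and at -0.55 over 5 genes in clusters 2 and 5. In cluster 3 it stood at 0.76, with 6 of 8 intervals above 0, where 32.9% of all genes tested had an interval that excluded 0. In alveolar fibroblasts the medians of these lists were 0.18 and 0.34. *Isg15*, a ubiquitin-like protein induced by interferon, was at 366 and 185 CPM over all selected cells, a log2 ratio of -0.98 [-1.09 to -0.88], and 1 control cell held 25.9% of its control UMIs. The ratio was -0.62 without clusters 4 and 6. *Cxcl9*, a chemokine for CXCR3+ T cells, was at 2611 and 3875 CPM in cluster 1, where 16 of 24 and 27 of 37 cells had a UMI and 1 cell held 39.8% and 17.2% of the UMIs. Single cluster 1 cells ranged from 0 to 12596 CPM in the control and from 0 to 28717 CPM in the Dnmt1iECKO library, with medians of 321 and 854 CPM, so the libraries overlapped. With every cell thinned to 4000 UMIs, 21.8% and 21.5% of selected cells had a UMI of *Cxcl9*, against 3.31% and 6.49% of endothelial cells, the median depths of which were 10429 and 10801 UMIs. Thinning left out 0 and 3 selected cells and 645 and 260 endothelial cells, and without it 31.0% and 32.7% of selected cells had a UMI. *Cxcl9* was at 403 and 241 CPM in alveolar fibroblasts and at 45.4 and 111 CPM in endothelial cells. *Cd74*, the class II invariant chain, was at 492 and 1440 CPM in cluster 1, a log2 ratio of 1.55 [1.41 to 1.69], and its log2 ratio was 0.06 in cluster 3. The 10 immune markers summed to 12.4 and 45.5 CPM in cluster 1 and to 16.9 and 45.8 CPM in cluster 3, and their part in the *Cd74* value was not tested. The 9 class I antigen presentation genes had a median of 0.05, and 0.13 without clusters 4 and 6.

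Genes of hypoxia and glycolysis had a median above 0 over all selected cells, with different values among the clusters. Their median log2 ratio was 0.53 over 15 genes, with 11 intervals above 0, none below and 3 genes past 2-fold, and 0.38 over 13 genes without clusters 4 and 6. In cluster 3 it was 0.59, with 12 of 12 intervals above 0, where 32.9% of all genes tested had an interval that excluded 0. In cluster 1, where that share was 32.8%, it was 0.02 and 8 of 10 intervals held 0, and in clusters 2 and 5 it was -0.03 and 5 of 6 held 0. The difference between clusters was not tested. In alveolar fibroblasts it was -0.03 and in endothelial cells 0.10. *Pgk1*, a glycolytic kinase, had a log2 ratio of 0.74 [0.60 to 0.88] over all selected cells and 0.43 [0.23 to 0.62] without clusters 4 and 6. *Bnip3*, a mitophagy receptor, was at 96.4 and 160 CPM in cluster 3, where 13 of 17 and 22 of 22 cells had a UMI and 1 control cell held 55.3% of the control UMIs. *Egln3*, an oxygen-sensing prolyl hydroxylase, had 18 and 231 UMIs in cluster 3, of which 1 Dnmt1iECKO cell held 48.9%. *Vegfa*, the endothelial growth factor, was at 177 and 446 CPM in cluster 3 and at 107 and 74.99 CPM in clusters 2 and 5.

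**Figure D3:**
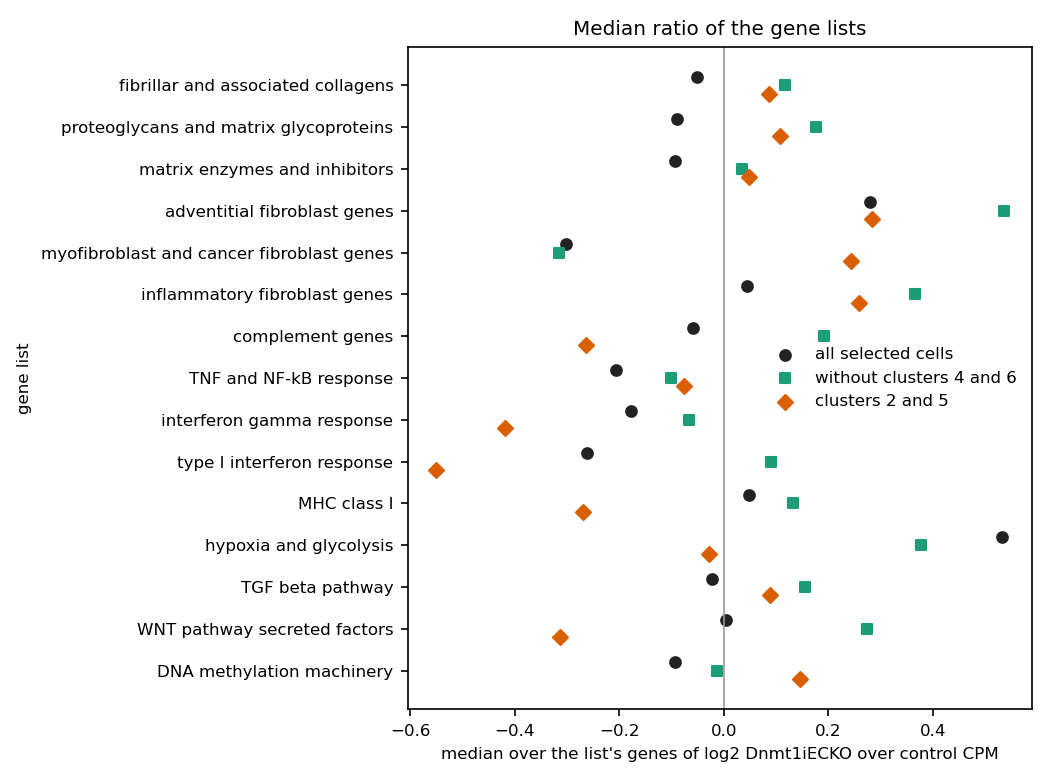
Median log2 ratio (Dnmt1iECKO over control) of 15 gene lists in all selected cells, without clusters 4 and 6, and in clusters 2 and 5. The hypoxia list is at 0.53, 0.38 and -0.03 and the adventitial list at 0.28, 0.54 and 0.28, while the collagens lie near 0 in the 3 sets.

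Of the 12 named genes that were higher in the Dnmt1iECKO library, 5 had most of their UMIs in cluster 5 and 3 had most in clusters 4 and 6. *Opcml*, a cell adhesion molecule, was at 18.7 CPM [14.9 to 23.3] in control cells and 86.3 CPM [79.6 to 93.4] in Dnmt1iECKO cells, from 80 and 614 UMIs, a log2 ratio of 2.20 [1.87 to 2.56]. Cluster 5 held 59.5% of its UMIs, and in cluster 2 alone it was at 136 and 316 CPM. *Pcsk6*, a proprotein convertase, had 24 and 164 UMIs, of which cluster 5 held 61.2%. *Dpp4* had 14 and 94 UMIs, of which cluster 5 held 75%, and without cluster 5 its log2 ratio was -0.79. *Lrrn4cl* and *Sema3e*, a semaphorin that repels vessels, had log2 ratios of 1.96 and 57.0% and 61.9% of their UMIs in cluster 5. *Ntrk2*, the receptor of the neurotrophin BDNF, had 18 and 103 UMIs, a log2 ratio of 1.78, mainly from clusters 2 and 5 (17 and 97 UMIs).

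*Hdac9*, a class II histone deacetylase, had a log2 ratio of 2.78 [2.07 to 3.59], from 17 UMIs in 12 control cells and 195 UMIs in 29 Dnmt1iECKO cells. Clusters 4 and 6 held 59.0% of its UMIs, and its log2 ratio was 1.71 with cells of at least 15 UMIs of the 4 matrix genes. *Hist1h2ap*, a replication-dependent histone gene of a family of near-identical copies, had 94.6% of its UMIs in clusters 4 and 6, and its log2 ratio of 1.61 turned to -0.62 without them. *Adra1b*, an adrenergic receptor, had a log2 ratio of 1.67, or 2.94 without clusters 4 and 6, and 71.7% of its UMIs in those clusters. *Adamts17*, a secreted metalloprotease, had 43 and 211 UMIs, of which cluster 1 held 7 and 150. *Gm15726* (57 and 284 UMIs, log2 ratio 1.58) and *G530011O06Rik* (13 and 91 UMIs, log2 ratio 2.07) lie on the minus strand of chromosome X, at 169979047 to 169985232 and 169975043 to 169978917 in GRCm38. Both lie within the gene body of *Mid1*, which runs on the plus strand.

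Among the 12 named genes lower in the Dnmt1iECKO library, a choice that left out genes such as *Cdh5*, the lowest log2 ratio was that of *Sftpc*, the surfactant protein of alveolar epithelium, at 22.95 CPM [18.6 to 28.0] in control cells and 7.31 CPM [5.46 to 9.58] in Dnmt1iECKO cells, with a UMI in 50 of 87 and 37 of 147 cells. With cells of at least 15 UMIs of the 4 matrix genes its log2 ratio was -7.09. It was at 2154 and 2235 CPM in endothelial cells. The source of its UMIs in the selected cells was not tested. *Des*, the muscle intermediate filament desmin, was at 71.9 and 27.6 CPM, a log2 ratio of -1.38 [-1.65 to -1.12]. It was at 167 and 38.7 CPM in cluster 1 and at 93.6 and 99.5 CPM in cluster 3. *Adam12*, a metalloprotease of activated fibroblasts, was at 149 and 66.8 CPM, and cluster 3 held 583 of its 637 control and 393 of its 475 Dnmt1iECKO UMIs. *Itga1*, a collagen receptor subunit, was at 143 and 64.2 CPM. *Cish*, an inhibitor of cytokine signaling, had 67 and 40 UMIs, a log2 ratio of -1.48 [-2.08 to -0.89], and its log2 ratio was below -1 in cluster 1, cluster 3 and clusters 2 and 5. *Aox3*, *1700016P03Rik*, *Ddah1*, *Ccn5*, *Arap2* and *Scube1* had log2 ratios from -1.36 to -1.09, and that of *Aox3* was -0.62 with cells of at least 15 UMIs of the 4 matrix genes.

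**Figure D4:**
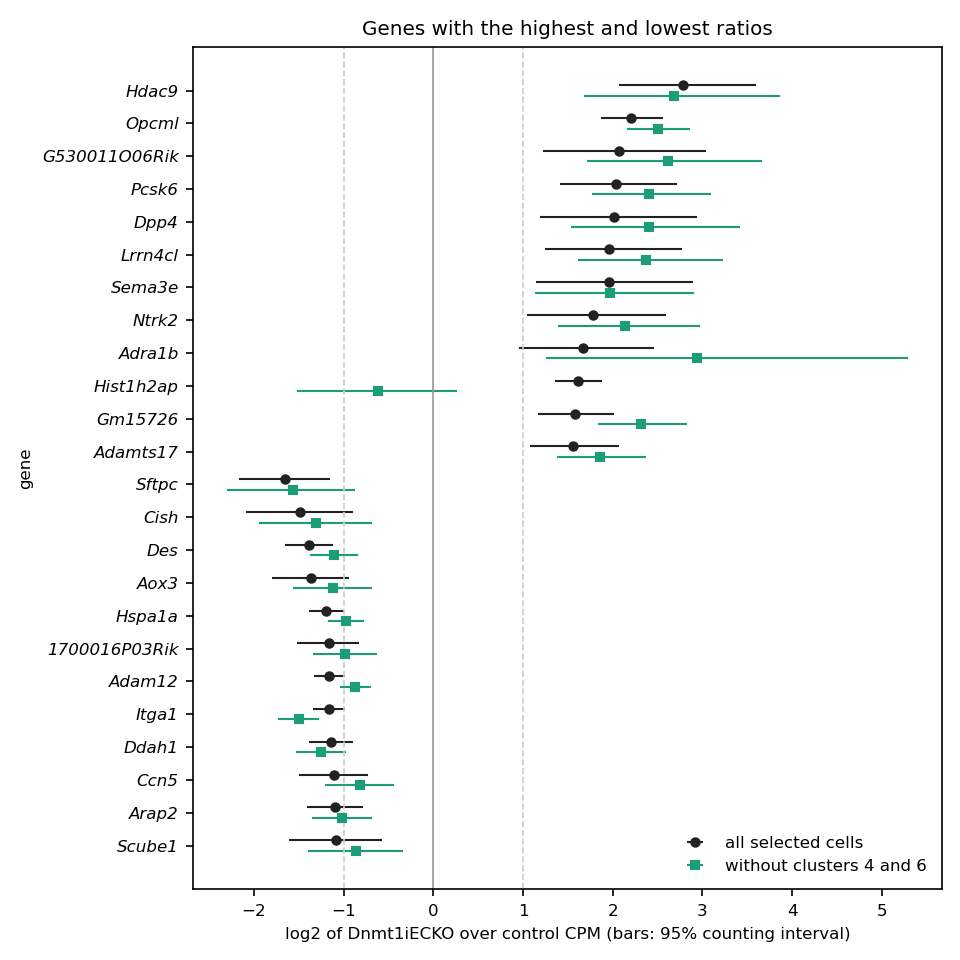
Log2 ratio (Dnmt1iECKO over control) of the 24 named genes with 95% counting intervals, in all selected cells and without clusters 4 and 6, with dashed lines at 2-fold. *Hist1h2ap* is at 1.61 and then -0.62, while *Opcml* is at 2.20 and 2.50 and *Itga1* at -1.16 and -1.50.

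A further set of genes, chosen after their values were seen, stood in the same direction in clusters 1, 2 and 3, each with its interval excluding 0. Of 3195 genes with at least 50 UMIs in each of these clusters, 31 (0.970%) were higher and 21 (0.657%) lower in all of them. *Mid1*, a ubiquitin ligase of microtubules, and *Chl1*, a neural adhesion molecule, were more than 2-fold higher in each of the 3, and *Rpl29*, a protein of the large ribosomal subunit, was more than 2-fold lower. In cluster 1, 1 Dnmt1iECKO cell held 63.1% of the *Mid1* and 33.3% of the *Chl1* UMIs. With the cell richest in each gene left out of each library (added once the data had been seen), the cluster 1 log2 ratios were 0.80 for *Mid1* and 0.68 for *Chl1*, below 2-fold, and -2.47 for *Rpl29*. In cluster 2 *Mid1* was then at 0.80 as well. In cluster 2 the UMIs of *Chl1* came from 5 control and 4 Dnmt1iECKO cells.

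*Rpl29* was at 971 CPM in control cells and 168 CPM in Dnmt1iECKO cells without clusters 4 and 6, a log2 ratio of -2.53 [-2.66 to -2.41]. Median single-cell levels in cluster 1 were 638 and 141 CPM. It was also lower in alveolar fibroblasts, at 585 and 168 CPM, and in endothelial cells, at 622 and 152 CPM. In clusters 4 and 6 it was at 1525 and 1554 CPM, a log2 ratio of 0.03 [-0.04 to 0.10]. The difference was thus seen in clusters 1, 2 and 3, in alveolar fibroblasts and in endothelial cells, and not in the 52 cells that mostly lacked *Xist*. Ribosomal protein genes have many near-identical processed copies, so the division of these counts among copies is uncertain.

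*Il33* was at 264 CPM (712 UMIs) in control cells and 507 CPM (1846 UMIs) in Dnmt1iECKO cells without clusters 4 and 6, a log2 ratio of 0.94 [0.82 to 1.07]. It was at 234 and 400 CPM in cluster 1, at 236 and 464 CPM in cluster 3 and at 472 and 1141 CPM in cluster 2, where 1 Dnmt1iECKO cell held 41.5% of its UMIs. It was at 44.0 and 58.3 CPM in alveolar fibroblasts, a log2 ratio of 0.41 [0.14 to 0.67], and at 9.96 and 14.1 CPM in endothelial cells. With the richest cell of each library left out, the log2 ratio without clusters 4 and 6 was 0.87 [0.74 to 1.01], and it was 1.08, 0.94 and 1.04 in clusters 1, 2 and 3. The share of cells with a UMI did not follow the summed level: in the same cells, without clusters 4 and 6, it was 43.5% and 41.8% after thinning to 4000 UMIs, which left out 0 and 3 cells, and 69.6% and 69.9% unthinned. Single-cell levels overlapped, with cluster 2 medians of 213 and 192 CPM, so no order is read from them.

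*Mid1* was at 75.3 and 181 CPM without clusters 4 and 6, a log2 ratio of 1.27 [1.04 to 1.502], against 0.49 in alveolar fibroblasts and 0.46 in endothelial cells. *C1s2* and *C1rb*, chromosome 6 copies of the genes for the complement proteases C1s and C1r, had 46 and 197 UMIs and 64 and 221 UMIs, with log2 ratios of 1.67 [1.20 to 2.16] and 1.35 [0.95 to 1.78]. The ratios were 1.22 and 0.99 in alveolar fibroblasts and 1.77 and 1.21 in endothelial cells. Counts of such copies may include reads of their paralogs. *Mt2*, a metallothionein, was at 81.6 and 206 CPM. *Hspa1a*, an inducible heat shock protein nearly identical to *Hspa1b*, was at 304 and 93.3 CPM in cluster 1, 228 and 134 CPM in cluster 2 and 69.3 and 34.0 CPM in cluster 3. With the richest cell of each library left out, its cluster 2 log2 ratio was -0.47 [-0.97 to 0.04], an interval that holds 0. It was also lower in alveolar fibroblasts, at 250 and 174 CPM, and in endothelial cells, at 387 and 286 CPM.

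**Figure D5:**
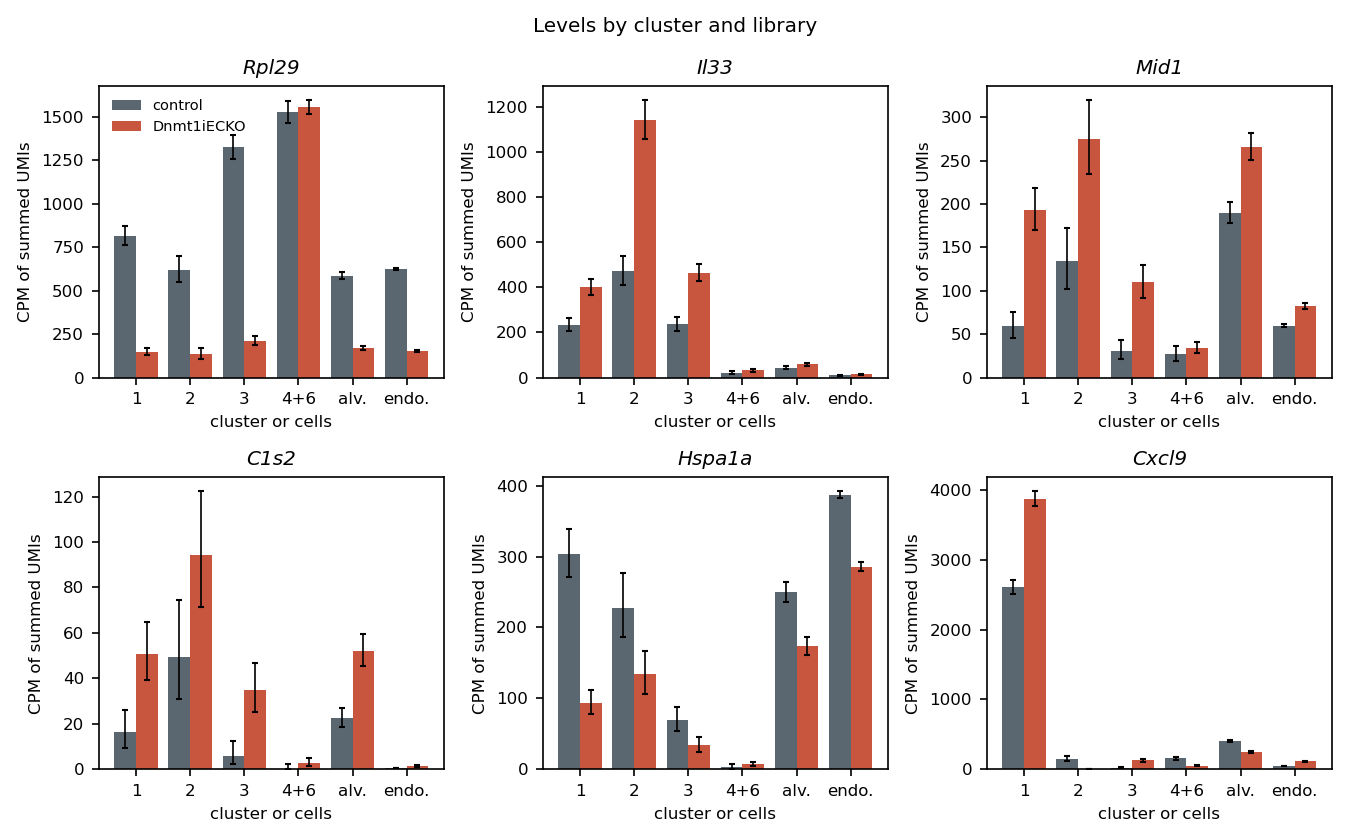
Levels (CPM of summed UMIs) of *Rpl29*, *Il33*, *Mid1*, *C1s2*, *Hspa1a* and *Cxcl9* in the control and the Dnmt1iECKO library, in clusters 1, 2 and 3, in clusters 4 and 6, in alveolar fibroblasts and in endothelial cells. Bars start at 0 and error bars are 95% Poisson intervals, which cover counting error only. *Rpl29* is lower in Dnmt1iECKO bars except in clusters 4 and 6, and *Il33* is higher in clusters 1, 2 and 3.

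Markers of further cell types were low in the selected cells. The 10 immune markers summed to 14.5 and 48.8 CPM, with *Ptprc* at 0 by the rule and *Lyz2*, lysozyme of myeloid cells, at 44 and 176 UMIs. The 8 epithelial markers summed to 99.8 and 116 CPM, and to 83.5 and 39.3 CPM without clusters 4 and 6. Applying the study's own exclusion of cells with *Epcam*, *Cspg4* or *Myh11* would have removed 41 of the 87 control and 59 of the 147 Dnmt1iECKO cells. A UMI of *Cdh5* or *Pecam1* was present in 18 and 21 of the cells without those genes.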

How the data were processed

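Live CD31+CD45- cells were sorted from pooled tumors and libraries were made with the 10x Genomics 3′ GEM-X v4 kit, as described in the labels. The authors deposited filtered matrices of UMI counts (whole numbers, not normalized) per gene and cell, made with Cell Ranger 9.0.1 against mm10 per the submitters' processing notes. Depth was 123830489 and 141433493 UMIs per library. Cells with fewer than 500 genes or over 10% mitochondrial UMIs were left out. The selection rule and the gene lists were chosen with earlier results of these data known.

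For each library the UMIs of the chosen cells were added up. CPM were computed with exact Poisson intervals, shares with exact (Clopper-Pearson) intervals and log2 ratios with exact conditional intervals, all at 95%. A gene was compared when the summed UMIs of both libraries reached 100, and 2-fold was the threshold. With 1 library per genotype no p-value was computed. Of these genes, the 12 most extreme log2 ratios in each direction were named, provided that no cell held over 20% of the UMIs in the higher library and that the direction held with the cells chosen without *C3* and *Tnfaip6* and without cells holding a *Cdh5* or *Pecam1* UMI. Mitochondrial, ribosomal protein and haemoglobin genes and the genes of the rule were not eligible. Genes of 28 lists and the 20 genes highest over alveolar fibroblasts in both libraries could also be named. The code was tested on simulated data. Selected cells were clustered (Leiden, resolution 0.5, 2000 variable genes, 20 components), and the genes of the rule were not left out. For shares of cells with a UMI, cells were thinned to 4000 UMIs, and shallower cells were left out. Doublets were scored with Scrublet, marking the highest 0.4% per 1000 cells (346 and 363 cells), and were kept. Positions are from GENCODE vM21 (GRCm38), in which 32235 of 32285 gene IDs were found. Python 3.11.15, numpy 2.4.6, scipy 1.17.1, pandas 2.3.3 and scanpy 1.11.5 were used. Alternatives changed the thresholds, the cells kept, the scaling and the clusters kept.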

Additional observations from a re-analysis of the deposited data

How the results depend on the processing

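No paired analysis was possible because each genotype had 1 library, and for the same reason no replicate could be left out. Of 799 values recomputed under another choice, 630 stayed within their error or within 1.5 times, 157 moved and 12 changed direction. The cause was not tested except where the choice itself removed cells or genes. The alternatives that leave out clusters or the richest cell of a gene were chosen after seeing the data.

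The genes more than 2-fold higher numbered 175 with at least 100 collagen and *Dcn* UMIs, 151 with at least 3 of the 5 subtype genes, 129 without cells holding a Y-linked UMI, 52 in clusters 2 and 5, 329 and 15 at minimums of 20 and 400 UMIs, and 44 with no cell over 20% of a gene. Genes lower by that fold numbered 58 with at least 3 subtype genes, 41 in clusters 2 and 5, 341 and 20 at those minimums, and 20 with no cell over 20%. The log2 ratio of the share of selected cells was 1.16 without cells holding a *Cdh5* or *Pecam1* UMI and 1.72 of *Ptprc*-negative cells, and stayed within its interval in 13 of 15 settings.

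Without cells holding a *Cdh5* or *Pecam1* UMI the median log2 ratio was 0.49 for adventitial, -0.082 for myofibroblast and -0.0011 for alveolar fibroblast genes. Without cells holding an *Epcam*, *Cspg4* or *Myh11* UMI it was 0.68 for adventitial, 0.35 (reversed) for myofibroblast, 0.26 for inflammatory and 0.37 for hypoxia genes, and *Hist1h2ap* was at -0.80. Without clusters 4 and 6 it was 0.54 for adventitial, 0.37 for inflammatory, 0.090 for type I interferon and 0.38 for hypoxia genes, and *Hist1h2ap* was at -0.62. In clusters 2 and 5 it was 0.24 (reversed) for myofibroblast, 0.26 for inflammatory, -0.42 for interferon gamma, -0.55 for type I interferon and -0.028 for hypoxia genes, with *Des* at 0.63 and *Ddah1* at 0.043. Without cluster 5 it was -0.016 for adventitial and -0.14 for alveolar fibroblast genes, with *Dpp4* at -0.79. Hypoxia genes were at 0.38 with at least 3 subtype genes and 0.40 by the mean CPM of single cells. Type I interferon genes were at 0.15 with at least 100 collagen and *Dcn* UMIs. With at least 1 of *Sfrp1*, *Pi16* and *Col14a1*, interferon gamma genes were at 0.060 and alveolar fibroblast genes at -0.13. Without thinning, 32.7% of Dnmt1iECKO cells had a UMI of *Cxcl9* and 59.8% and 63.3% of control and Dnmt1iECKO cells one of *Il33*. Thinned to 2000 UMIs, 25.3% of control cells had one of *Il33*.

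Depth limits genes with few UMIs, and the number of cells limits every value. With 3 control cells in cluster 5, its levels in the control are hardly measured.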
